A study of Mus musculus with 2 samples.

Results

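Mir126a, Mir221 and Mir222 are 3 microRNA genes known from blood vessels, and they were followed here in the kidney of newborn mice. The rule that picks them names them for that association and uses no measured value, though it was written with earlier results of these data known. They are 3 of the 1973 genes in the count tables. The study sequenced small RNA from 2 samples of kidney tissue of the mouse strain B6NCrl on postnatal day 0. A sample holds both kidneys of a single pup, the pups share a pregnancy by the labels, and sex was not collected. Both therefore form 1 group of 2 animals with no treatment or genetic change named, and the comparisons are those between genes within the kidney and that of pup 2 with pup 1.

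MicroRNAs are cut from hairpin transcripts, and the mature strand guides repression of messenger RNAs that pair with its seed, the bases 2 to 8 from its 5′ end. Mir126a lies within Egfl7, a gene of endothelial cells, and its product is known for relieving repression of growth factor signals by lowering Spred1 and Pik3r2 in the endothelium. Mir221 and Mir222 are neighbours on chromosome X, and their shared seed is known for repressing Kit, a growth factor receptor, and Cdkn1b, an inhibitor of the cell cycle. They are found in endothelial cells and also in vascular smooth muscle and many other cells, so they mark vessels less specifically than Mir126a. The newborn mouse kidney still forms nephrons, and its capillaries and glomerular tufts grow along with them.

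The mature sequences are shown because a seed is what separates these genes or joins them. They come from RefSeq on build GRCm38.p6 and run 5′ to 3′, with the seed in capitals.
miR-126a-3p: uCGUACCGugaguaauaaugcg
miR-221-3p: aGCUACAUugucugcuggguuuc
miR-222-3p: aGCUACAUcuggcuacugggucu
miR-221-5p: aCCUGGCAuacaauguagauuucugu
The seed of miR-126a-3p was carried by no other mature sequence of the 1679 names in that table. miR-221-3p and miR-222-3p shared their seed with each other and with miR-1928. The first 8 bases of miR-221-3p and miR-222-3p were identical, and over all 23 positions 11 were. Mir1928 had 0 counts in both pups, and taking 0 to allow 3 counts sets a limit of 0.780 CPM in pup 2 and 0.514 CPM in pup 1, where CPM are counts scaled to a library total. The arms miR-126a-5p and miR-222-5p also exist.

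The counts belong to whole hairpin genes, so the arms were not separated. The hairpin of Mir126a is printed with its 3p arm in capitals, since it is the most abundant of the 3 genes and since another microRNA gene lies on its opposite strand.
Mir126a hairpin: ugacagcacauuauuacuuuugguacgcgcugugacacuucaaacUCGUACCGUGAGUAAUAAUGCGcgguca
No stretch of 22 bases of this hairpin, or of those of Mir221 and Mir222, occurred in another annotated microRNA hairpin. Each of the 4 mature sequences above was found in 1 hairpin of the RefSeq table. Reads of these genes thus had no other microRNA hairpin of identical sequence to share with.

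On mm10, the hairpin gene Mir126a (ENSMUSG00000065540.1) sits on the plus strand, at chr2:26591357-26591429. Egfl7 spans chr2:26580014-26593120 on the same strand, and the hairpin starts 11343 bases after the start of that gene. Of 19 Egfl7 transcripts in GENCODE release M21, 8 have an intron at the hairpin, 1 holds it in an exon, and 10 do not span it. The other gene annotated over it on that strand is Gm20532. Mir221 (ENSMUSG00000065422.1) lies on the minus strand at chrX:19146294-19146388, and Mir222 (ENSMUSG00000065471.1) on the same strand at chrX:19146893-19146971. The pair is 504 bases apart, Mir222 comes first in the direction of transcription, and neither has a host gene on either strand in that release.

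**Figure D1:**
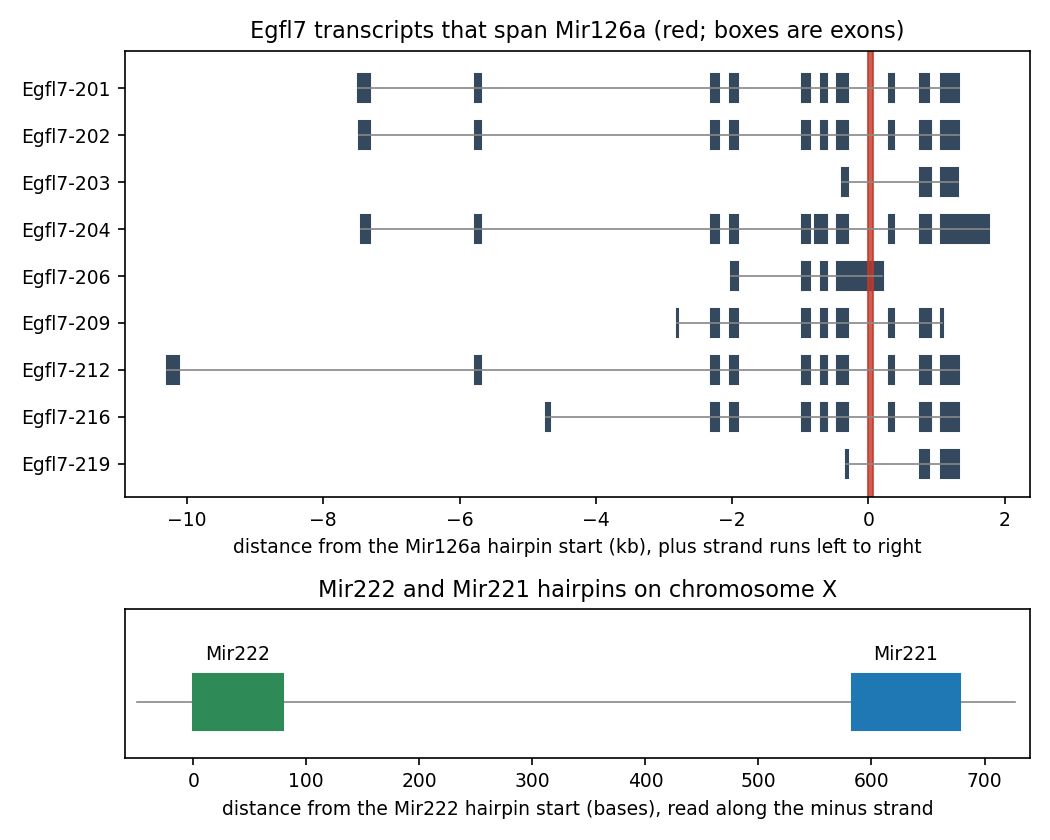
The upper panel draws, to scale, the 9 Egfl7 transcripts that span Mir126a, with exons as boxes, introns as lines and the hairpin in red, over distance in kb from the hairpin start. The lower panel draws the Mir222 and Mir221 hairpins over distance in bases along the minus strand, 504 bases apart; in the upper panel 8 transcripts have an intron at the hairpin and 1 an exon.

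Mir126a was the second most abundant microRNA gene in both pups by counted reads, while Mir221 and Mir222 were moderately expressed. Multimapping reads, 31.0% of reads in pup 2 and 30.3% in pup 1, were assigned to no gene. Genes that share sequence with another hairpin can thus be undercounted, and ranks hold among counted reads only. CPM here take as total the counts of all named genes in a library, of which there were 3846704 in pup 2 and 5832192 in pup 1. Intervals in parentheses are 95% Wilson intervals, which cover counting error only. Mir126a had 335468 counts in pup 2 and 419729 counts in pup 1. This gave 87209 CPM in pup 2 (86928 to 87492) and 71968 CPM in pup 1 (71758 to 72178). The intervals lay apart, so the pups differed by more than counting error at this depth. The level averaged 79588 ± 10777 CPM (SD, n = 2), and Mir126a took 8.72% of counts in pup 2 and 7.20% in pup 1.

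Mir221 had 2431 counts in pup 2 and 3886 counts in pup 1, or 632 CPM in pup 2 (607 to 658) and 666 CPM in pup 1 (646 to 688). The intervals overlapped, and the level averaged 649 ± 24.3 CPM (SD, n = 2). Mir222 had 988 counts in pup 2 and 1498 counts in pup 1. Its level was 257 CPM in each, with intervals of 241 to 273 CPM in pup 2 and 244 to 270 CPM in pup 1. The SD over the pups was 0.0049 CPM, far below that counting error. The 3 genes kept the same order in both pups, with Mir126a above Mir221 and Mir221 above Mir222, and no 2 of them came within their SD of each other.

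By mean level Mir126a ranked 2 with 1 gene above it, Mir221 ranked 89 and Mir222 ranked 126. Of the 696 genes with a count in either pup, 607 were below Mir221 and 570 below Mir222. Mir221 and Mir222 together came to 889 CPM in pup 2 and 923 CPM in pup 1. In bulk tissue, fewer cells of a type and less RNA per cell cannot be told apart. The yield of reads per molecule was not measured for any of these genes.

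**Figure D2:**
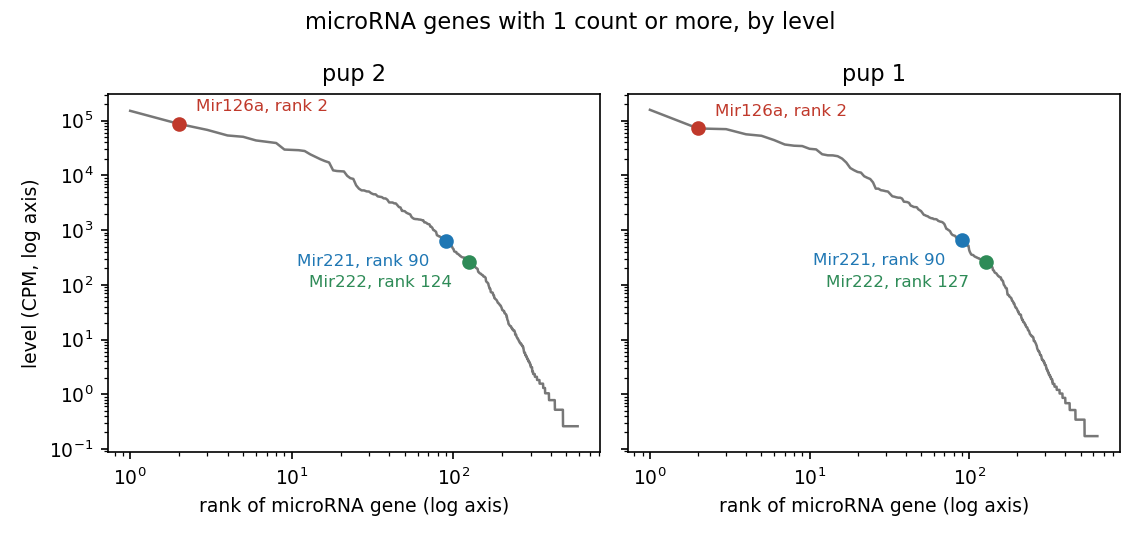
Each panel plots the level in CPM (log axis) of every gene with at least 1 count against its rank (log axis), pup 2 on the left and pup 1 on the right. Mir126a ranks 2 in both, Mir221 ranks 90 in both, and Mir222 ranks 124 in pup 2 and 127 in pup 1.

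The genes closest to each member in mean level over the 2 pups were found next. Nearness in level says nothing of shared cells. Mir10a, a microRNA of the Hoxb cluster, was the gene above Mir126a, and Mir10b of the Hoxd cluster was the next below at 67721 CPM in pup 2 and 69950 CPM in pup 1. Mir126a exceeded Mir10b within each of the 2 pups. Their means were 10753 CPM apart, about as much as the SD of Mir126a, and 2 pups do not settle whether the order holds in others. In pup 1 alone, Mir126a at 71968 CPM stood just above Mir10b at 69950 CPM. Mir335, a microRNA of the imprinted gene Mest, followed at 54955 ± 1919 CPM (SD, n = 2), further from Mir126a than the SD of either gene.

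Mir221 stood among Mir96 (688 ± 2.10 CPM), Mir141 (657 ± 16.6), Mir148a (637 ± 34.2) and Mir487b (635 ± 42.3). Of these neighbours, Mir96 differed from Mir221 by more than the SD of either gene, and the other 3 did not. Mir222 stood among Mir125b-1 (258 ± 7.25 CPM), Mir155 (257 ± 6.83), Mir421 (249.7 ± 16.4) and Mir20b (246 ± 22.8), all with n = 2. None of these 4 differed from Mir222 beyond the larger SD.

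The members were also compared inside each library, where no scaling between libraries enters. There were 2.46 reads of Mir221 for each read of Mir222 in pup 2 and 2.59 in pup 1. Mir221 thus made up 71.1% of the reads of the pair in pup 2, with a Wilson interval of 69.6 to 72.6, and 72.2% in pup 1, with limits of 71.0 to 73.4. The intervals overlapped, and the ratio averaged 2.53 ± 0.0945 (SD, n = 2). Mir126a outnumbered the sum of Mir221 and Mir222 by 98.1 to 1 in pup 2 and 77.96 to 1 in pup 1, a quotient between the pups of 1.26. Against Mir221 alone that quotient was 1.28, and against Mir222 alone it was 1.21. Mir221 and Mir222 were 1.01% of the reads of the 3 genes in pup 2 (0.976 to 1.04) and 1.27% in pup 1 (1.23 to 1.30). These intervals lay apart.

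Other neighbouring microRNA genes give a measure for the ratio of Mir221 to Mir222. Among all genes of the tables there were 37 pairs of adjacent genes on the same strand, at most 1000 bases apart, each gene averaging 100 counts or more. The higher gene exceeded the lower 2.93-fold in the median pair, with quartiles of 1.90-fold and 10.3-fold and extremes of 1.18-fold and 264-fold. Mir221 exceeded Mir222 2.53-fold, with 15 pairs below and 21 above, so the pair was near the middle. Its log2 ratio moved by 0.08 between the pups, less than in 25 of the pairs and more than in 11, against a median of 0.13. Of the 37 pairs, 29 had no gene that shares 22 bases with another hairpin. Genes of overlapping pairs are not independent, so these are descriptions with no test.

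**Figure D3:**
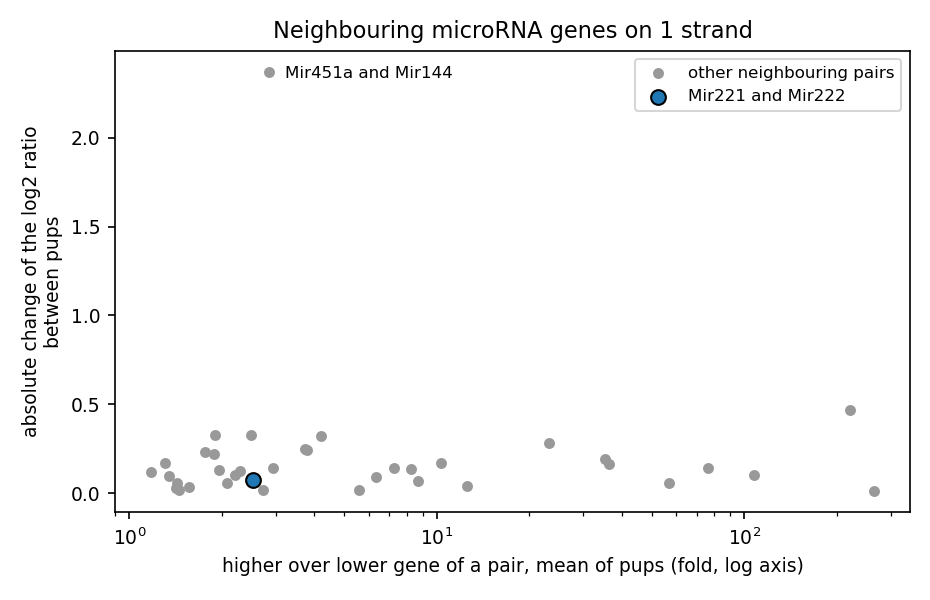
Each point is 1 of the 37 neighbouring pairs of microRNA genes, with the fold of the higher over the lower gene (log axis) on the x axis and the absolute change of that log2 ratio between the pups on the y axis. Mir221 and Mir222 sit at 2.53-fold with a change of 0.08, near the middle in fold, while Mir451a and Mir144 stand apart with a change of 2.37.

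The pups were then compared gene by gene. An exact two-sided binomial test set the counts of both libraries against each other, given TMM effective library sizes, over the 324 genes that averaged 10 counts or more, with Benjamini-Hochberg adjustment. It compares the reads of 2 libraries, not conditions, and covers counting error only. It called 109 genes, 33.6% of those tested, with 41 higher in pup 2 (12.7%) and 68 lower (21.0%). Scaled by DESeq2 size factors, it called 92, with 52 higher and 40 lower, so the split by direction depends on the scaling.

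Pup 2 had more Mir126a than pup 1, by a log2 ratio of 0.26 (95% counting interval 0.25 to 0.26). Its adjusted p was too small to be represented. Among the 21 genes at a mean of 10000 CPM or more it had the largest absolute log2 ratio of that comparison, ahead of Mir99a at 0.25, against a median of 0.09. Of those 21 genes 20 were called, so a call says little at that depth. In percentage points of counts its difference of 1.52 was the largest of all tested genes, followed by Mir10a with -0.66, from 15.1% of counts in pup 2 and 15.8% in pup 1. By size of the log2 ratio it was number 81 of the 324 tested genes. An edgeR exact test with the common dispersion of the pups, a biological coefficient of variation of 9.29%, did not call it (p = 0.18, adjusted p = 1.0). That test called 1 gene of the 324, or 0.309%, and took its dispersion from the same difference between the pups.

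Mir221 was lower in pup 2 by a small margin, with a log2 ratio of -0.10 (-0.17 to -0.02), and passed that exact binomial test with an adjusted p of 0.03. The call was lost with library totals (-0.08, adjusted p = 0.12) and with DESeq2 size factors (-0.055, adjusted p = 0.32). Of the 41 tested genes within 2-fold of its mean count, 65.9% were called and the median absolute log2 ratio was 0.12. Mir222 had a log2 ratio of -0.02 (-0.14 to 0.10) and did not pass the exact binomial test, with an adjusted p of 0.87. It was number 299 of 324 by size, and its sign depended on the scaling. Of the 59 genes within 2-fold of its mean count, 42.4% were called, with a median absolute log2 ratio of 0.11. Called in 1 direction or the other were thus 2 of the 3 genes, beside 33.6% of all tested genes, a share that rises with depth.

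**Figure D4:**
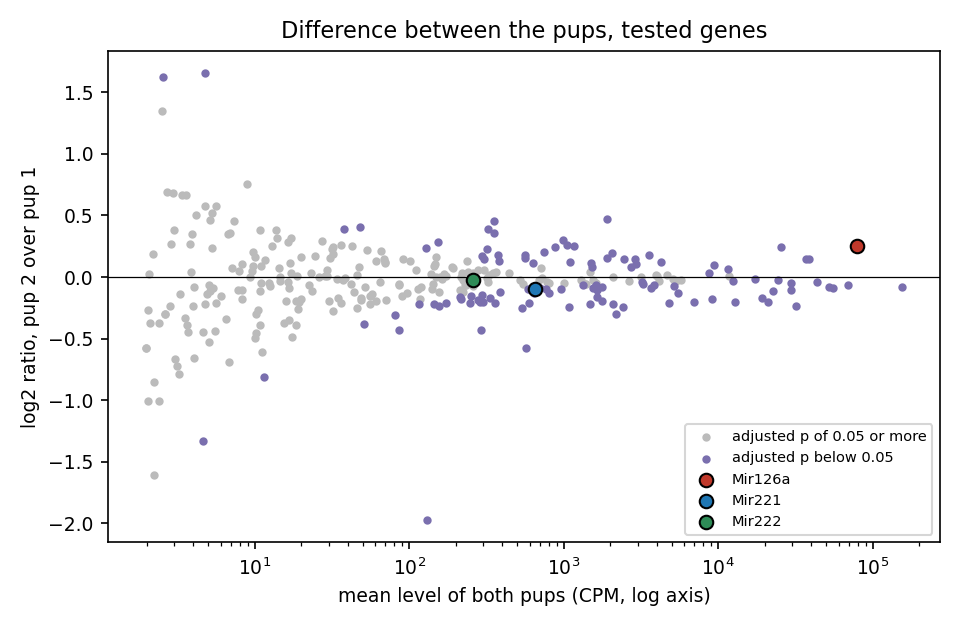
Each point is 1 of the 324 tested genes, with the mean level of both pups in CPM (log axis) on the x axis and the log2 ratio of pup 2 over pup 1 on the y axis, coloured by the exact binomial call. Mir126a lies above 0 at 0.26, Mir221 below at -0.10 and Mir222 near 0 at -0.02.

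Other microRNAs tied to endothelial cells or vessel growth were read beside these genes. Of 32 listed genes 29 had a row, and Mir126b, Mir24-1 and Mir378a did not. All 29 were tested, 7 were higher in pup 2 and 10 lower, and 12 did not pass, where 12.7% of all tested genes were higher and 21.0% lower. The list holds several of the 21 genes above 10000 CPM, of which 20 were called, and nothing particular to the list is read from its counts. The median log2 ratio was -0.04, and it was -0.04 over all tested genes too. With DESeq2 size factors 9 were higher and 5 lower. Under all 5 scalings tried, 7 genes were called higher and 5 lower, and the log2 ratio of 5 others changed sign with the scaling. The 7 include Mir210, a microRNA induced by low oxygen, at 397 CPM in pup 2 and 305 CPM in pup 1 (log2 ratio 0.36), and Mir27a (0.23) and Mir100 (0.18). Mir27b (0.11), Mir15a (0.12), Mir16-1 (0.08) and Mir23a (0.06) complete them. The 5 are Mir296 (-0.24), Mir20a (-0.18), Mir17 (-0.17), Mir10a (-0.08) and Mir10b (-0.07). Mir17 and Mir20a belong to the miR-17~92 cluster, known from proliferating cells and from endothelium. Its other listed genes did not share their calls. Mir18 (-0.03), Mir19a (-0.17) and Mir19b-1 (-0.05) were called under 0 of the 5 scalings and Mir92-1 (-0.07) under 1. No change of the cluster as a whole is read from Mir17 and Mir20a.

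The other genes called lower by the main scaling were Mir503 (-0.10), Mir92-1 (-0.07), Mir130a (-0.05), Mir322 (-0.04) and Mir23b (-0.03). Mir503 and Mir92-1 were called under 1 of the 5 scalings, and Mir130a, Mir322 and Mir23b under 3. Mir322 and Mir23b also changed sign under other scalings. The levels of the list ran from Mir10a at 154440 CPM to Mir19b-1 at 12.4 CPM, as means of the pups. Mir10a was the 1 listed gene above Mir126a, 17 were above Mir221, 5 lay between Mir221 and Mir222, and 7 were below Mir222. The highest of the list were Mir10a, Mir10b, Mir322 (43791 ± 436 CPM) and Mir130a (29536 ± 372 CPM, SD, n = 2). Hairpins of 6 of the 29 genes hold 22 bases found in another hairpin, among them Mir16-1 and Mir92-1, and their levels are uncertain.

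**Figure D5:**
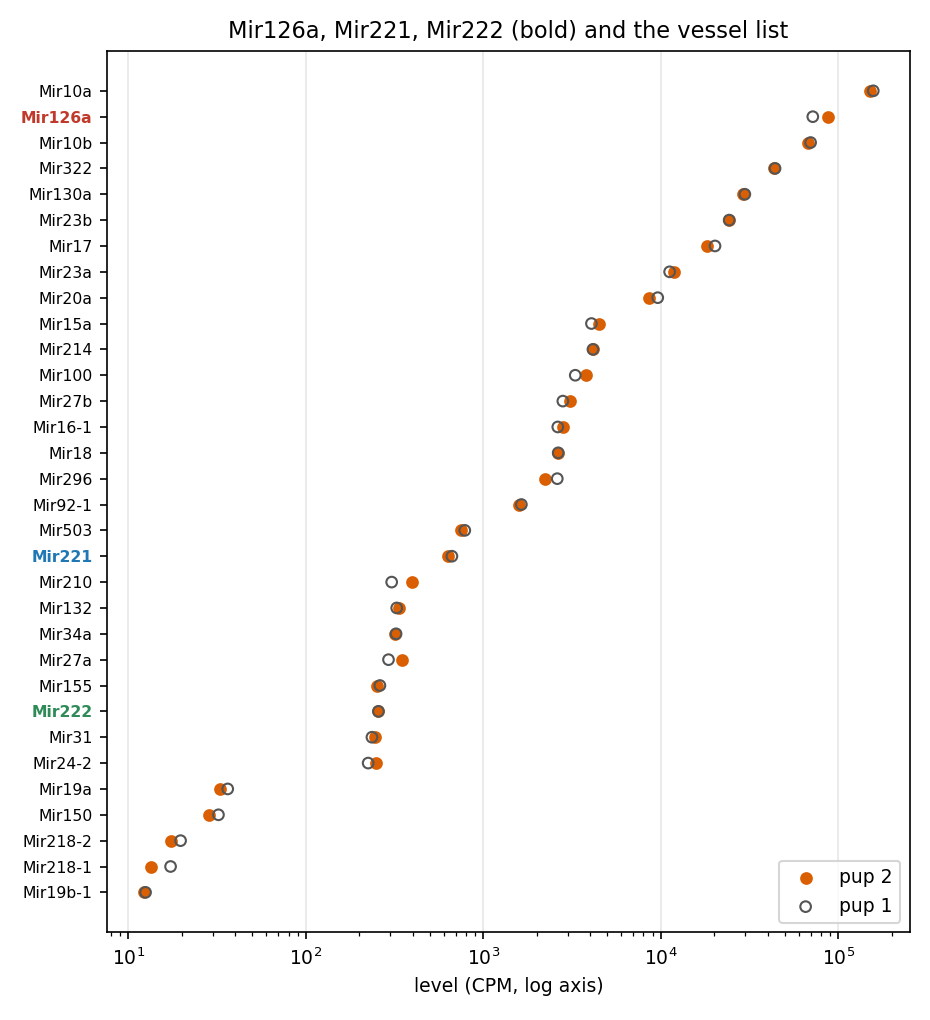
Levels in CPM (log axis) are plotted for Mir126a, Mir221, Mir222 (bold names) and the 29 counted genes of the vessel list, pup 2 as filled and pup 1 as open circles, ordered by mean. Mir126a stands second below Mir10a and is higher in pup 2, and Mir221 and Mir222 lie in the lower part of the list.

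Markers of other cell types in the tissue were summed for the same libraries. These lists overlap the vessel list in Mir214, counted here with smooth muscle and mesenchyme, and in Mir150 and Mir155, counted below with leukocytes and platelets. Mir143, Mir145a, Mir214 and the 3 miR-199 genes of smooth muscle and mesenchyme summed to 44552 CPM in pup 2 and 40300 CPM in pup 1. Of these 6 genes, Mir143 (log2 ratio 0.14) and Mir145a (0.12) were higher in pup 2, and Mir199b (-0.18) was lower but was not called under the 4 other scalings. The median log2 ratio of the 6 was -0.09, opposite in sign to the change of the sum. The 5 epithelial genes of the miR-200 family summed to 31660 CPM in pup 2 and 31551 CPM in pup 1, with 1 higher, Mir200b (0.03), and 2 lower, Mir200c (-0.09) and Mir429 (-0.02), the last changing sign with the scaling. Their median was -0.06. Over all tested genes 12.7% were called higher and 21.0% lower, with a median of -0.04. Mir126a exceeded the smooth muscle and mesenchyme sum 1.96-fold in pup 2 and 1.79-fold in pup 1, and the epithelial sum 2.75-fold in pup 2 and 2.28-fold in pup 1. Mir126a alone was thus above either sum of markers, in counted reads. The 3 miR-199 genes hold 22 bases found in other hairpins, so their levels and the smooth muscle and mesenchyme sum are uncertain.

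Mir126a is also known from platelets and blood stem cells, so blood markers are given beside it. The 4 counted leukocyte and platelet genes, led by Mir223 at 280 CPM in pup 2 and 317 CPM in pup 1, summed to 672 CPM in pup 2 and 735 CPM in pup 1. Mir223 was lower in pup 2 (log2 ratio -0.20, adjusted p = 0.0014 by the exact binomial test), and Mir142 of that list had no row. The red cell genes Mir451a, Mir144 and Mir486 summed to 98.8 CPM in pup 2 and 241 CPM in pup 1. In pup 2 Mir451a was lower (log2 ratio -1.98) and Mir144 was higher (0.39), while Mir486 was below the count minimum, so the red cell genes did not move together. The 4 genes of the mature proximal tubule summed to 896 CPM in pup 2 and 848 CPM in pup 1, led by Mir192 at 563 ± 54.8 CPM (SD, n = 2). Mir192 was higher in pup 2 (log2 ratio 0.18) and Mir194-2 lower (-0.15, adjusted p = 0.024 by the exact binomial test), while Mir215 (-0.30) and Mir194-1 (-0.45) did not pass, and the median of the 4 was -0.23, opposite in sign to the change of the sum. Mir126a exceeded the leukocyte and platelet sum 129.7-fold in pup 2 and 97.9-fold in pup 1, and the red cell sum 883-fold in pup 2 and 299-fold in pup 1. What part blood or smooth muscle cells have in the difference of Mir126a between the pups was not tested. None of the counted marker genes was at 0 in both pups. Mir194-1, Mir194-2 and Mir486 hold 22 bases found in another hairpin, so their levels and the sums that include them are uncertain.

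A few reads came from the strand opposite to Mir126a. There were 19 in pup 2 and 22 in pup 1, which is 0.00566% of the reads of both strands in pup 2, between Wilson limits of 0.00363 and 0.00885, and 0.00524% in pup 1, between 0.00346 and 0.00794. The shares of the pups did not differ beyond counting error. Opposite Mir221 there was no read in either pup, against 2431 reads in pup 2 and 3886 in pup 1 on its own strand. The limit of 3 counts that a count of 0 allows would be 0.123% in pup 2 and 0.0772% in pup 1. Opposite Mir222 there was 1 read in each pup, below that limit. The depth at Mir221 and Mir222 could not show a share as low as that at Mir126a.

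Release M21 places Mir126b at chr2:26591363-26591420 on the minus strand, so that all 58 of its bases lie within the Mir126a hairpin. It has no row of its own, and its mature sequences are printed because 19 bases of miR-126b-5p lie opposite miR-126a-3p.
miR-126b-5p: aUUAUUACucacgguacgaguu
miR-126b-3p: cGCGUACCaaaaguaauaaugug
Neither of these seeds is that of miR-126a-3p. If all opposite reads belonged to Mir126b, its level would be 4.94 CPM in pup 2 and 3.77 CPM in pup 1.

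Opposite-strand reads were rare elsewhere. With at least 1000 reads on the strand of the gene in both pups there were 123 genes, of which 120 have no microRNA annotated on the other strand. Of these 120 genes, 110 in pup 2 and 108 in pup 1 had 0 opposite reads, and 2 in pup 2 and 3 in pup 1 had more than 3. Mir203 led with 173 opposite reads in pup 2 and 250 in pup 1, and Mir708 had 9 in pup 2 and 8 in pup 1. Mir10a, with more reads than Mir126a, had 1 opposite read in pup 2 and 0 in pup 1. Pooled over the 120 genes the opposite share was 0.00572% in pup 2 and 0.00538% in pup 1, most of it from Mir203. Without Mir203, a comparison added after its value was seen, the other 119 genes had 19 opposite reads in pup 2 and 27 in pup 1, or 0.000568% in pup 2 (0.000364 to 0.000887) and 0.000526% in pup 1 (0.000361 to 0.000765). The share at Mir126a was about that of the pooled 120 genes and above that of the 119, with Wilson intervals that lay apart in both pups. Leaving out the gene with the most opposite reads lowers the pooled share by construction. The gap from the 119 genes is therefore a description and no test of an excess at Mir126a. The number of opposite reads at Mir126a was exceeded by Mir203 alone of the 120 genes, but that number depends on depth. By share Mir708 was above Mir126a, with 9 opposite beside 6687 gene-strand reads in pup 2 and 8 beside 10574 in pup 1. Mir203 was above Mir126a by share in both pups too. So was Mir182, but with only 1 opposite read in pup 2 and 3 in pup 1, not above the limit of 3 counts. Mir30e and Mir374b, the other genes with an annotated partner, had 0 opposite reads in both pups.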

How the data were processed

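Small RNA was sequenced in 2 newborn kidney samples. The deposited tables hold raw read counts per gene, made by the authors by alignment to mm10 and counting over annotation M4, per the deposited notes; no source used here gives the aligner or trimming. The columns carry no header. Column 2 equals column 3 plus column 4 in every row, read as either, gene and opposite strand. Column 3 was used.

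Rows that name no gene were left out of totals; multimapping reads were 31.0% of reads in pup 2 and 30.3% in pup 1, unmapped reads 8.69% in pup 2 and 8.52% in pup 1, and reads of no listed gene 2.92% in pup 2 and 2.91% in pup 1. Identifiers were matched without version to GENCODE M21 (1894 of 1973 genes).

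The exact binomial test (SciPy 1.17.1) used TMM effective library sizes of edgeR 4.0.16 over the whole table, a prior count of 0.5 for log2 ratios and a threshold of 0.05. It was tested on simulated counts that held counting error only. They had no variation between animals, so they could not show how the test behaves where animals differ. The edgeR exact test and DESeq2 1.42.0 size factors were alternatives. With 1 library a side no quasi-likelihood test could be fitted. Nothing says that the libraries were made in separate batches or in 1, and intervals and floors cover counting error alone, since reads lacking molecular identifiers can be copies of a molecule.

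The genes, lists, tests and limits were chosen with earlier results of these data known. Named were the 3 genes, the 2 genes next above and below each in mean CPM, the called genes and the 4 highest of the vessel list, and the leading marker genes. Genes named for opposite-strand reads, Mir99a, and the Mir451a and Mir144 pair were chosen after their values were seen.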

Additional observations from a re-analysis of the deposited data

Results flagged for a closer look

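Reads opposite to Mir126a lie outside the measurement used for levels and came to 41 over both pups, 19 in pup 2 and 22 in pup 1, above the 3 counts that a count of 0 allows. Mir126b is annotated on that strand, and the source of the reads was not tested.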

How the results depend on the processing

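The design holds 1 group of 2 pups, and no paired analysis was possible because no 2 groups exist to share replicate numbers. Levels move with the total they are scaled to. With all reads of the table as total, the means were 45989 CPM for Mir126a, 375 for Mir221 and 149 for Mir222. With multimapping reads added to the total they were 51980, 424 and 168 CPM, and with Mir10a left out 94091, 768 and 304 CPM. With reads of either strand Mir222 had 252 CPM. Single pups gave 71968 to 87209 CPM for Mir126a, 632 to 666 CPM for Mir221, 257 CPM for Mir222, 2.46 to 2.59 for the ratio of Mir221 to Mir222 and 78.0 to 98.1 for that of Mir126a to both.

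Mir126a stayed higher in pup 2 under every scaling, filter and strand setting run, at 0.26 to 0.30, but was not called by the edgeR exact test (log2 ratio 0.26, adjusted p = 1.0), which called 1 gene, with 14 at an unadjusted p below 0.05. The filters only select which genes are tested, so they could not change a log2 ratio. Mir221 lost its call with library totals (-0.076), DESeq2 size factors (-0.055), TMM over tested genes (-0.074, chosen after seeing the data), totals without Mir126a (-0.052), no filter on low counts (-0.10) and the edgeR exact test (-0.10). The log2 ratio of Mir222 turned to 0.0 with library totals, 0.021 with DESeq2 size factors, 0.002 with TMM over tested genes and 0.024 with totals without Mir126a. TMM over tested genes called 98 genes, 48 higher and 50 lower. Depth limits Mir222 most, at 988 counts in pup 2 and 1498 in pup 1.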
